A study of Mus musculus with 6 samples.

Results

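GW4064 activates FXR, the receptor through which cells sense bile acids, and gene expression under this synthetic compound was measured in the ileum of mice whose bile duct had been tied off. Groups were taken from the sample titles: 2 arrays labelled BDL_GW4064 were compared with 2 labelled BDL_Vehicle, which are 4 of the 6 arrays of the series. The array holds 22690 probe sets, of which 22626 are not controls. Of these, 13575, standing for 7919 genes, were bright enough to be tested.

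The mice were male and wild type, on a mixed C57BL/6:129Sv background, and 8 to 10 months old. BDL_GW4064 animals received 100 mg/kg/day of the agonist by gavage for 2 days before the common bile duct was ligated and for 5 days afterwards, when the ileum was taken. BDL_Vehicle animals had the same ligation and schedule but received the carrier of Tween80 and methylcellulose alone. Sham_Vehicle animals (2 arrays) had the duct freed but not tied and received the carrier, and they are given here as the level with bile flow intact. Sham-operated mice given GW4064 were not analysed here, so the response to the agonist with bile flow intact was not measured. Whether 2 arrays of a group stand for 2 animals is not stated in the labels. P-values here therefore reflect the spread between these samples alone, and that spread may be technical.

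FXR, encoded by Nr1h4, is a nuclear receptor that binds bile acids and, with its partner RXR, switches on target genes. In the ileum it senses bile acids taken up from the gut lumen, limits further uptake through Slc10a2, promotes export through the Slc51a and Slc51b pair, and induces Fgf15, a hormone that tells the liver to make less bile acid. With the duct tied, bile acids no longer reach the ileum along the duct, and a synthetic agonist given by mouth supplies the receptor with a ligand.

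Signals are MAS5 intensities on a linear scale, with the same trimmed mean of 200.1 in every array. A difference is the mean of log2(signal + 4) in BDL_GW4064 minus that in BDL_Vehicle, so that a difference of 1 is about 2-fold and the change of dim genes is understated. A signal of 37.1 marks the lower end of the tested probe sets, and a fold is given as a lower bound where a group has neither array above it. Genes of small intestinal epithelium were bright in every array. The bile acid binding protein Fabp6, itself among the genes that passed below, read at least 2620.5. The brush border protein Vil1 read at least 3274.1 and the Paneth cell lysozyme Lyz1 at least 4758.0. Neither Vil1 nor Lyz1 is particular to the ileum. The 5′ probe set for 18S ribosomal RNA read 67.3 to 88.7 on BDL_Vehicle replicate 1 and both Sham_Vehicle arrays, and 8.6 to 13.3 on BDL_Vehicle replicate 2 and both BDL_GW4064 arrays. Per the labels the labelling reactions ran in batches, whose members are not given. The groups of arrays split by 18S signal are called array sets, and fitting the set as a term leaves the comparison resting on BDL_Vehicle replicate 2, the vehicle array in the same set as BDL_GW4064. In bulk tissue, fewer cells of a type and less RNA per cell cannot be told apart.

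GW4064 raised 6 genes and lowered 1. Fgf15, Nr0b2, Fabp6, Cyp3a11, Fn1 and Slc26a2 rose and Akr1c14 fell, with limma's adjusted p under 0.05. These 7 were 0.0516% of the probe sets and 0.0884% of the genes tested. Before adjustment, 1016 probe sets had a p under 0.05, of which 601 were higher and 415 lower. The number that passed was 2 without BDL_Vehicle replicate 1, 4 without BDL_Vehicle replicate 2, 48 without BDL_GW4064 replicate 1 and 18 without BDL_GW4064 replicate 2. With array set fitted 2 passed, Fgf15 and Nr0b2.

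The first 3 of the genes that rose belong to the FXR pathway. Fgf15 read 5.5 and 3.4 in BDL_Vehicle, 972.1 and 809.6 in BDL_GW4064, and 316.2 and 479.6 in Sham_Vehicle. Both treated arrays therefore lay above both sham arrays, and the vehicle arrays were close to the lowest signals measured. The rise was at least 21.7-fold (limma adjusted p = 7.93e-05). Nr0b2, the co-repressor SHP through which FXR represses other genes, read 10.8 and 3.5 in BDL_Vehicle and 691.7 and 493.5 in BDL_GW4064. Its Sham_Vehicle signals were 63.2 and 112.3, so the treated arrays stood far above the sham level as well. The rise was at least 14.3-fold (limma adjusted p = 0.00415).

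Fabp6, which carries bile acids through the enterocyte, read 2620.5 and 3109.5 in BDL_Vehicle and 6691.3 and 6412.2 in BDL_GW4064. That is a 2.29-fold rise (limma adjusted p = 0.0119) to the range of Sham_Vehicle, 6480.3 and 6650.7. The value of 6412.2 was also the highest of any probe set on BDL_GW4064 replicate 2, and 6650.7 the highest on Sham_Vehicle replicate 2. Whether the top of the signal range limits this fold and the likeness to sham was not tested. With array set fitted the difference was 1.07 (limma adjusted p = 0.0898).

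Slc51a, a subunit of the basolateral exporter, read 2097.4 and 2589.5 in BDL_Vehicle, 3677.2 and 3591.0 in BDL_GW4064 and 2955.8 and 2475.4 in Sham_Vehicle. The groups did not overlap, and the difference of 0.64 ± 0.14 (SE) did not pass (limma adjusted p = 0.268). The partner gene Slc51b was not among the tested genes. Slc10a2, the apical uptake carrier, read 507.2 and 357.1 in BDL_Vehicle and 118.0 and 215.2 in BDL_GW4064, with 595.6 and 324.1 in Sham_Vehicle. The treated arrays were the lowest of the 6, with a difference of -1.39 ± 0.36 (SE, limma adjusted p = 0.37).

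The receptor gene Nr1h4 read 539.8 and 423.8 in BDL_Vehicle and 319.3 and 274.7 in BDL_GW4064. Its Sham_Vehicle signals of 428.2 and 317.5 overlapped the treated arrays. Nr1h4 did not overlap between the ligated groups, and its difference of -0.68 ± 0.20 (SE) did not pass (limma adjusted p = 0.426). Its partner Rxra differed by -0.26. Osgin1, an oxidative stress-induced growth inhibitor, differed by 0.38, and Pltp, a phospholipid transfer protein, by 0.51.

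Of 15 genes listed as FXR, its partner and ileal targets, 13 were tested. Both treated arrays lay above both vehicle arrays for 6 of the 13 and below them for 3, where over all genes the shares were 19.1% and 16.7%. The list's median difference was 0.38 (0.30 with array set fitted), against 0.00 over all genes. In the list 3 members rose and 0 fell, where 0.0884% of all genes passed in either direction. Signals of the pathway by array show the vehicle arrays of Fgf15 and Nr0b2 below the dim limit and both treated arrays above it.

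**Figure D1:**
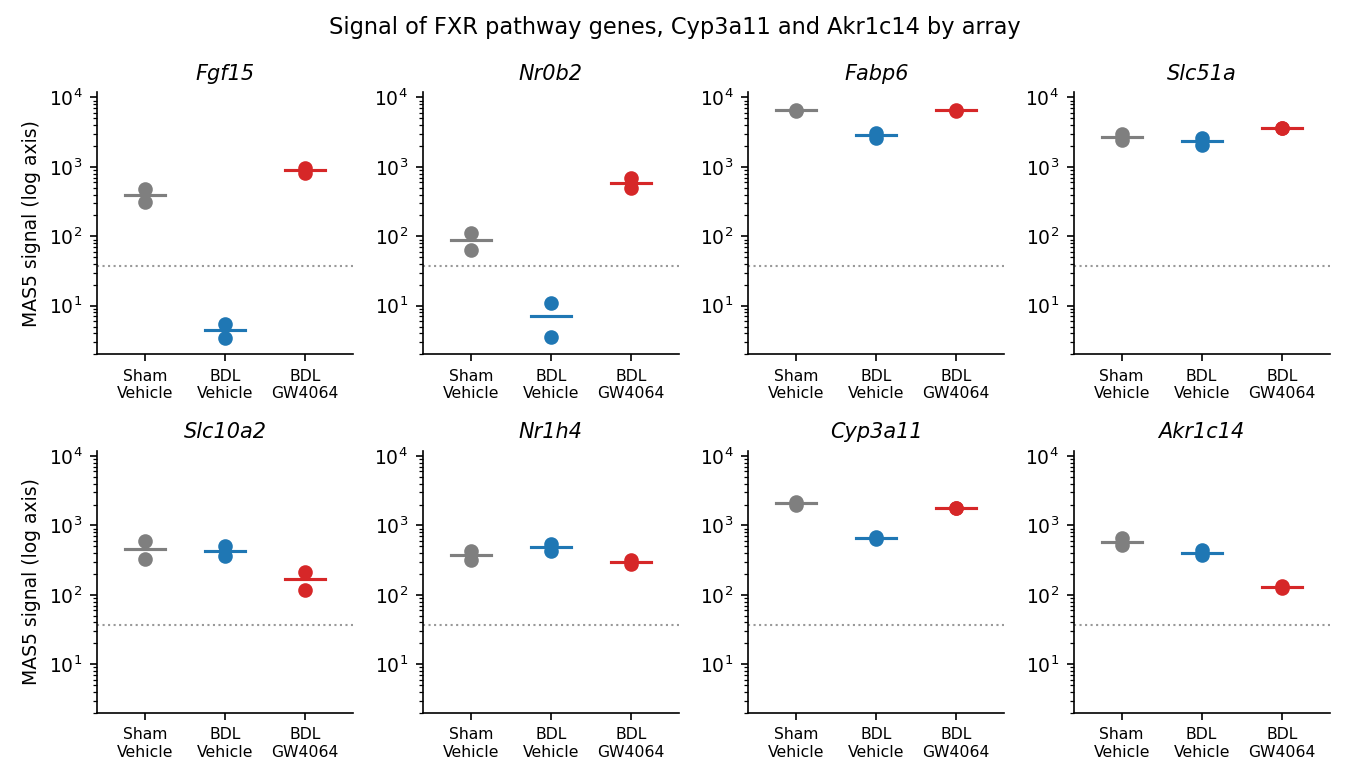
MAS5 signal on a log axis for 8 genes in the 2 arrays of each group; points are arrays, short lines group means, and the dotted line the signal of 37.1. Fgf15 and Nr0b2 lie below the line in BDL_Vehicle and at 493.5 or more in BDL_GW4064. Slc10a2, Nr1h4 and Akr1c14 have their lowest group mean in BDL_GW4064.

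FXR and RXR are known to bind 2 AGGTCA half-sites that face each other across 1 base. This inverted repeat, AGGTCANTGACCT, which reads the same on both strands, was searched in the 250 bases before each gene start in RefSeq (GRCm38.p6). At up to 2 mismatches it occurred in 0.959% of 32841 such windows, and at up to 3 mismatches in 9.63%. The windows of Fabp6 and Slc51a are shown because these genes handle bile acids in the enterocyte and their windows held the closest words among the genes matched. Capitals mark the first such word in each window.
Fabp6, chr11:43601563-43601812, minus strand: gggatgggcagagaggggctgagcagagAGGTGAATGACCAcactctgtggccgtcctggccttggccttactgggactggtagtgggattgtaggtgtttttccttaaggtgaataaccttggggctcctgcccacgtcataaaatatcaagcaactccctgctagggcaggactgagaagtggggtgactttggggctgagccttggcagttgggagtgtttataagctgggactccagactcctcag
Slc51a, chr16:32487880-32488129, minus strand: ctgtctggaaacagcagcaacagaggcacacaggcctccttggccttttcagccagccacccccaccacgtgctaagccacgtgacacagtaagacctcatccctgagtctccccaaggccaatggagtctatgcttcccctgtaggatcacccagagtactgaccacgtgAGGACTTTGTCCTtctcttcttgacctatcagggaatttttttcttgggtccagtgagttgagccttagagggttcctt

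The capitalised Fabp6 word has 2 mismatches and begins at base -222 from the gene start. It is not the only candidate: another word with 2 mismatches lies nearer the gene start in the same window, left in lower case. The capitalised Slc51a word has 3 mismatches and begins at base -79. A single AGGTCA on either strand, present in 14% of the windows and able to overlap the repeat, was found once in the Slc51a window and once in the Cyp3a11 window. In the windows of Nr0b2, Slc10a2, Cyp3a11 and Akr1c14 the closest word had 4 mismatches. Fgf15 and Fn1 were not matched. A match here describes the letters of the window and is not a measured binding site.

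Genes of drug and steroid metabolism gave 2 of the 7 that passed. Cyp3a11, an oxidising enzyme for drugs and bile acids, read 628.8 and 673.7 in BDL_Vehicle, 1787.3 and 1754.4 in BDL_GW4064 and 2193.5 and 1955.1 in Sham_Vehicle. It rose 2.71-fold (limma adjusted p = 0.0094), and the treated arrays stayed just under the sham arrays. Akr1c14, a hydroxysteroid dehydrogenase of the aldo-keto reductase family, read 440.0 and 371.1 in BDL_Vehicle and 135.8 and 126.5 in BDL_GW4064. It fell 3.02-fold (limma adjusted p = 0.0378) to below the Sham_Vehicle signals of 516.5 and 649.5. With array set fitted the differences were 1.39 (limma adjusted p = 0.0898) and -1.47 (limma adjusted p = 0.331).

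Among 17 tested P450 genes 13 had higher values, with a median of 0.31 (0.20 with array set fitted). Of the 17, 1 rose, where 0.0884% of all genes passed. Both treated arrays lay above both vehicle arrays for 9 and below for 1 (over all genes, 19.1% and 16.7%). Cyp2c55 read 31.5 and 19.9 in BDL_Vehicle and 151.9 and 207.4 in BDL_GW4064, at least 4.41-fold higher (limma adjusted p = 0.204), yet under the Sham_Vehicle signals of 861.6 and 281.8. Cyp2b10 stayed dimmer: 123.3 and 108.6 in BDL_Vehicle and 142.9 and 353.5 in BDL_GW4064, against 656.2 and 613.3 in Sham_Vehicle. Cyp4f13 differed by 0.75, Cyp3a25 by 0.62 and the sterol 27-hydroxylase Cyp27a1 by 0.51, and none of these passed. Nr1i2, the xenobiotic receptor PXR that controls Cyp3a11, read 174.5 and 182.1 in BDL_Vehicle and 285.9 and 263.4 in BDL_GW4064 (difference 0.61, limma adjusted p = 0.37).

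Glutathione transferases attach glutathione to reactive compounds. Gsta4, which handles products of lipid peroxidation, read 175.5 and 216.1 in BDL_Vehicle and 513.1 and 686.8 in BDL_GW4064, with a difference of 1.59 ± 0.19 (SE, limma adjusted p = 0.0502). In Sham_Vehicle it read 256.2 and 244.8, nearer the vehicle arrays. Gstm1 read 108.8 and 137.7 against 310.9 and 333.9 (limma adjusted p = 0.0668), and its other probe set differed by 1.21. These members share sequence within the Gstm family, so their signals may not be fully separate. Of 18 tested transferases 12 had higher values, 0 passed, and the median was 0.06.

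The carboxylesterase Ces2a read 672.8 and 853.8 in BDL_Vehicle and 2418.8 and 1737.7 in BDL_GW4064, around the Sham_Vehicle signals of 2080.3 and 2043.4 (difference 1.43, limma adjusted p = 0.0668). Another carboxylesterase, Ces1f, differed the other way by -0.70, and the list of 23 carboxylesterases and conjugating enzymes had 8 higher and 15 lower with a median of -0.07. In the list with Akr1c14, the retinaldehyde dehydrogenase Aldh1a3 differed by 1.75 (0.65 on its other probe set), the alcohol dehydrogenase Adh4 by 1.48 and Akr1c13 by -0.47. Of 23 members there, 1 fell and 0 rose, where 0.0884% of all genes passed.

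Slc26a2, which carries sulphate across the cell membrane, read 1022.2 and 948.3 in BDL_Vehicle and 2032.0 and 2262.4 in BDL_GW4064. It rose 2.17-fold (limma adjusted p = 0.0378), above the Sham_Vehicle signals of 1245.4 and 1389.3. A further probe set of the gene read 291.9 and 222.4 against 627.8 and 849.9 (limma adjusted p = 0.0973). The related chloride and bicarbonate exchanger Slc26a3 read 518.3 and 896.0 in BDL_Vehicle and 1823.0 and 1530.5 in BDL_GW4064, with a difference of 1.29 (limma adjusted p = 0.208). The chloride channel Cftr read 478.5 and 405.8 against 308.5 and 279.2 (difference -0.58, limma adjusted p = 0.37). Over 25 ion and sulphate transport genes 1 rose, where 0.0884% of all genes passed. The median of 0.11 was -0.03 with array set fitted.

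As a description that uses no variance model, genes with a 2-fold gap were counted: the lower treated array at least 2-fold above the higher vehicle array, or the reverse. By this rule 35 genes were higher (0.442% of those tested) and 3 lower (0.0379%). Of the 35, 1 had all 3 arrays of the set with BDL_GW4064 above all 3 of the other. Over all genes, 927 of 7919 did. The gap rule itself places BDL_Vehicle replicate 2, of that set, below both treated arrays, so this count does not measure an effect of array set. In 9 of the 35 both vehicle arrays were below 37.1, and 5 of the 35 had passed the test. The signal filter took the mean over all arrays, so a gene dim elsewhere could be tested because it was bright in BDL_GW4064. Serpina3n read 22.0 and 28.6 in BDL_Vehicle and 33.2 and 25.8 in Sham_Vehicle, all below 37.1, and 87.1 and 108.1 in BDL_GW4064. How many of the 35, or of the members of the gene lists, were tested for this reason was not counted. Col4a1 at 2-fold, Ecm1 at 2.01-fold and Rarres2 at 2.02-fold were just inside the limit, and Pdgfra at 1.99-fold and Slc26a2 at 1.98-fold just outside.

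**Figure D2:**
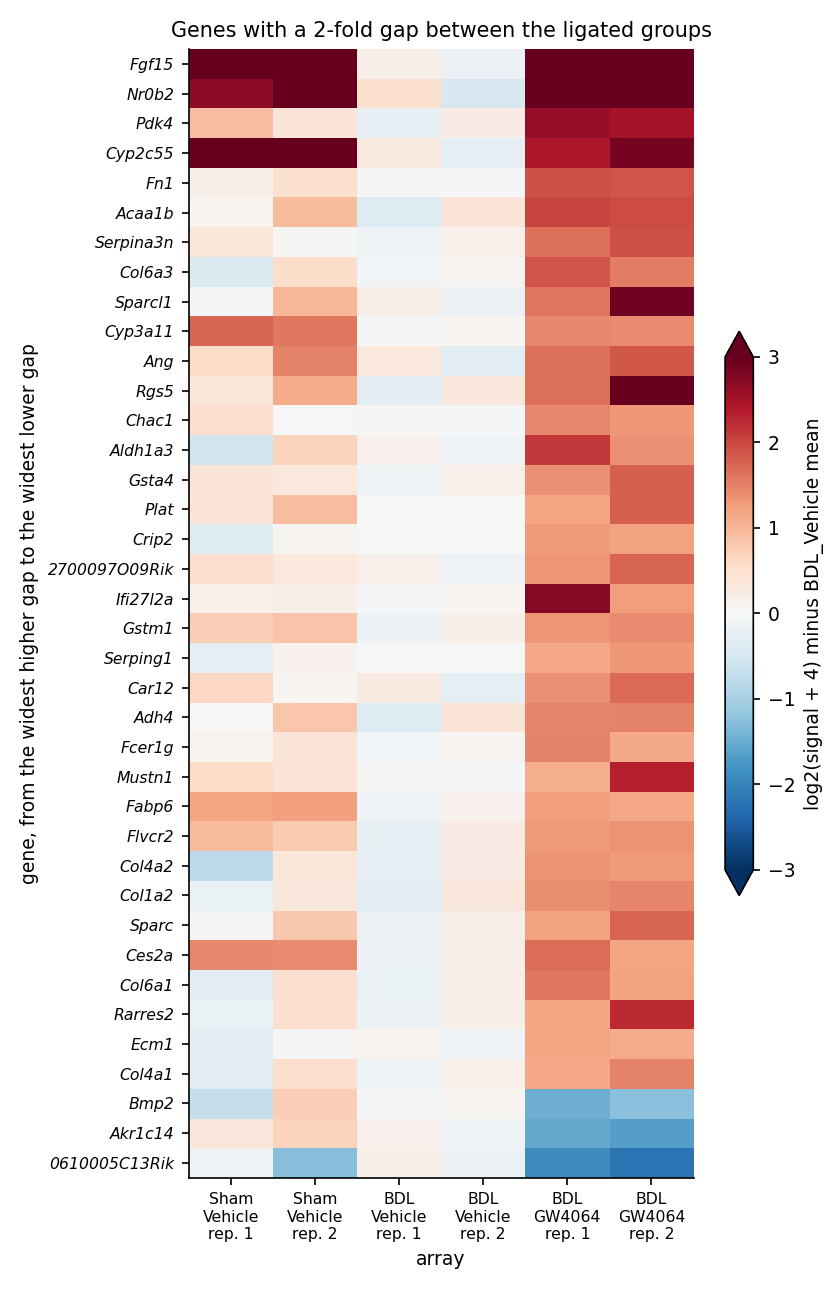
Log2(signal + 4) of the 38 genes with a 2-fold gap, minus the mean of the BDL_Vehicle arrays, in all 6 arrays; rows run from the widest higher to the widest lower gap, and colours saturate at 3 and -3. The 35 upper genes are above vehicle in both BDL_GW4064 arrays and the 3 lowest, Bmp2, Akr1c14 and 0610005C13Rik, are below it.

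The 3 lower genes were the uncharacterised 0610005C13Rik, Akr1c14 and Bmp2, a signal of differentiating villus cells. Bmp2 read 197.6 and 215.0 in BDL_Vehicle and 71.7 and 84.3 in BDL_GW4064, while the Sham_Vehicle arrays spread from 123.4 to 344.7 (limma adjusted p = 0.434). For 0610005C13Rik the vehicle arrays read 181.0 and 141.6, the treated arrays 40.3 and 31.5 and the sham arrays 145.2 and 64.2 (limma adjusted p = 0.198).

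Among the genes with a higher gap was Pdk4, the kinase that restrains glucose oxidation by shutting pyruvate dehydrogenase. Pdk4 read 16.1 and 24.5 in BDL_Vehicle, 144.0 and 130.7 in BDL_GW4064 and 41.8 and 27.3 in Sham_Vehicle. The treated arrays were above all others, by at least 3.43-fold over vehicle (limma adjusted p = 0.0502). Acaa1b, a peroxisomal thiolase of fatty acid oxidation, read 42.8 and 76.1 in BDL_Vehicle and 244.2 and 234.7 in BDL_GW4064 (difference 1.99, limma adjusted p = 0.19). Its near copy Acaa1a read 133.1 and 139.5 against 273.7 and 245.3 (difference 0.91), and since their sequences are alike these signals may overlap.

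Of 32 tested fatty acid oxidation genes 26 had higher values and 0 passed, with a median of 0.24. Both treated arrays were above both vehicle arrays for 15 and below for 3, against 19.1% and 16.7% of all genes. The acyl-CoA dehydrogenase Acadl differed by 0.63, the carnitine palmitoyltransferase Cpt2 by 0.59 and its partner Cpt1a by 0.30. The vehicle arrays differed here: GW4064 was higher for 28 genes against BDL_Vehicle replicate 1 and for 19 against BDL_Vehicle replicate 2, and with array set fitted the median was 0.10.

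Genes of cholesterol handling had values in opposite directions. Of 13 genes listed for cholesterol efflux and as targets of the receptor LXR, 11 had higher values. Of the 13, 8 were higher without overlap against 19.1% of all genes, with a median of 0.33 (0.25 with array set fitted). Abcg8, a subunit of the sterol exporter of the brush border, read 423.4 and 506.0 in BDL_Vehicle and 797.0 and 631.4 in BDL_GW4064, and 794.2 and 1077.8 in Sham_Vehicle. Its partner Abcg5 differed by 0.28 and the apolipoprotein Apoe by 0.73. The efflux pump Abca1 overlapped, with 103.9 and 116.7 in BDL_Vehicle and 116.3 and 167.6 in BDL_GW4064. Both groups stayed under its Sham_Vehicle signals of 299.8 and 471.9. Of 19 cholesterol synthesis genes 18 had lower values, 9 without overlap against 16.7% of all genes, with a median of -0.25, and 0 fell. The median was -0.16 against BDL_Vehicle replicate 1, where 7 of the 19 were higher, and -0.41 against BDL_Vehicle replicate 2, where 1 was. Cyp51, a sterol demethylase, read 687.8 and 691.1 against 469.8 and 529.1, with Sham_Vehicle at 428.2 and 413.5. Hmgcs1 differed by -0.32, Idi1 by -0.41 and the intracellular sterol carrier Stard4 by -0.40.

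A group of 4 genes were followed up in the published study, possibly because of these very arrays, and their direction is then no independent evidence. Ang, a secreted ribonuclease with antimicrobial activity, read 50.7 and 31.2 in BDL_Vehicle, 134.5 and 156.4 in BDL_GW4064 and 61.8 and 119.5 in Sham_Vehicle. Car12, a membrane carbonic anhydrase, read 157.5 and 106.3 against 341.0 and 428.0, and Il18, an epithelial cytokine, 464.9 and 378.7 against 729.1 and 1154.9. In these 3 genes the treated arrays were above all other arrays, and limma's adjusted p was 0.24, 0.17 and 0.26 in that order. Nos2, the inducible nitric oxide synthase, overlapped, with 22.4 and 81.5 against 57.6 and 145.4, and the sham arrays read 57.1 and 2.5.

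Among other defence genes, Rnase4, a ribonuclease whose gene shares promoters with Ang, read 871.7 and 618.5 in BDL_Vehicle and 1691.1 and 2044.7 in BDL_GW4064 (difference 1.34, limma adjusted p = 0.0866). The lectins Reg3b and Reg3g differed by -0.36 and -0.59. The 15 tested antimicrobial and mucosal defence genes had 6 higher and 9 lower values, 2 and 6 without overlap (19.1% and 16.7% of all genes), and a median of -0.07 (0.06 with array set fitted). Of the 15, 0 passed. Goblet cell markers had a median of 0.02 (13 genes). The Paneth cell median (6 genes) was 0.03, but 0.31 without BDL_Vehicle replicate 1.

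Genes of the connective tissue beneath the epithelium were higher in both treated arrays. Fn1, the matrix glycoprotein fibronectin, read 168.0 and 161.7 in BDL_Vehicle, 631.7 and 620.5 in BDL_GW4064 and 187.3 and 230.8 in Sham_Vehicle. It rose 3.73-fold (limma adjusted p = 0.0094) and its treated arrays agreed closely. Col6a3, a chain of type VI collagen, read 90.3 and 100.8 against 366.1 and 284.5 (difference 1.72, limma adjusted p = 0.208). Col1a2, a chain of fibrillar type I collagen, read 133.6 and 217.8 against 451.8 and 479.2 (difference 1.43, limma adjusted p = 0.209).

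All 26 tested fibroblast and collagen genes had higher values, 24 of them without overlap, against 19.1% of all genes. The list had 29 genes on the array, and Mfap4, Mfap5 and Postn were under the filter. Mfap4 and Mfap5 overlapped between the ligated groups. Postn read 20.5 and 18.8 in BDL_Vehicle and 23.9 and 198.5 in BDL_GW4064. Some members were bright in a treated array only: Lum read 178.2 in BDL_GW4064 replicate 2 and 20.9 to 42.5 in the other arrays. The median was 1.32 and 1 member rose, where 0.0884% of all genes passed. The median relative to the vehicle mean was 1.12 in BDL_GW4064 replicate 1 and 1.31 in replicate 2, and 1.08 with array set fitted. Of the 26, 7 were among the 35 genes with a higher 2-fold gap, which 0.442% of all genes had. They included the basement membrane chain Col4a1 and the matrix protein Sparc. The summed signal of the 26 genes was 3024 and 3812 in BDL_Vehicle, 7892 and 8510 in BDL_GW4064 and 3189 and 4718 in Sham_Vehicle. The treated arrays were thus above every other array, and both carried the difference. Smooth muscle genes, given further on, had a median of 0.60 in replicate 1 and 3.29 in replicate 2, and the part of muscle tissue in the fibroblast values was not tested.

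Matrix remodelling genes gave a smaller shift. Plat, tissue plasminogen activator, read 26.1 and 26.1 in BDL_Vehicle and 64.9 and 99.9 in BDL_GW4064, at least 2.06-fold higher (limma adjusted p = 0.268). Thbs1, thrombospondin, differed by 1.04, the TGF-beta receptor Tgfbr2 by 0.66 and the membrane protease Mmp14 by 0.51. Of 16 tested genes 12 had higher values, 11 without overlap against 19.1% of all genes, and 0 passed. The median of 0.50 was -0.05 when the lowest 60% of probe sets were left out in place of the lowest 40%.

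Most tested blood vessel and macrophage genes were higher in both treated arrays. Of 8 tested endothelial genes 7 had higher values, 6 without overlap against 19.1% of all genes, with a median of 0.79 (0.59 with array set fitted), and 0 passed. The adhesion molecule Esam read 50.8 and 41.7 against 87.2 and 99.0, and the TGF-beta co-receptor Eng 61.9 and 69.8 against 120.3 and 117.6. A further 10 endothelial genes on the array were under the filter, among them Pecam1. Of 21 macrophage, dendritic cell and complement genes 19 had higher values, 15 without overlap against the same share, with a median of 0.54 (0.58 with array set fitted), and 0 passed.

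The complement recognition chain C1qc read 152.7 and 148.7 in BDL_Vehicle, 310.0 and 283.1 in BDL_GW4064 and 112.6 and 125.8 in Sham_Vehicle. Fcer1g, a signalling chain of immune receptors, read 51.5 and 57.6 against 159.6 and 124.8, and Mpeg1, a pore-forming protein of phagocytes, 207.5 and 202.8 against 302.3 and 297.6. C1qa differed by 0.86 and the serine protease C1s1, made by fibroblasts and other cells, by 1.14. Further members of the list overlapped between the groups and differed little. These were Adgre1 (0.06), Itgam (-0.07), Cd14 (-0.26), Ctss (0.08), Lyz2 (0.21) and Lgals3 (0.20). Cd68 (0.42) and Cx3cr1 (0.36) did not overlap. Neutrophil and mast cell genes (16 on the array) and red cell and plasma genes (4 on the array) were all under the filter.

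Other genes with a 2-fold gap lay outside these groups. Serpina3n, a protease inhibitor, read 22.0 and 28.6 in BDL_Vehicle and 87.1 and 108.1 in BDL_GW4064, at least 2.46-fold higher (limma adjusted p = 0.134). Serping1, the inhibitor of complement C1, read 133.2 and 131.8 against 299.7 and 331.9. Chac1, which degrades glutathione and is known as a stress response gene, read 32.7 and 31.5 against 93.8 and 84.5, at least 2.26-fold higher. The LIM protein gene Crip2 read 90.5 and 93.0 against 226.8 and 217.3. The matrix-associated Sparcl1 and the pericyte gene Rgs5 were higher in both treated arrays but far more in replicate 2, at 599.0 and 1159.2 against 237.6 and 333.0 in replicate 1. The haem and choline transporter family member Flvcr2 was at least 1.92-fold higher, and the uncharacterised 2700097O09Rik differed by 1.54 (limma adjusted p = 0.0718).

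**Figure D3:**
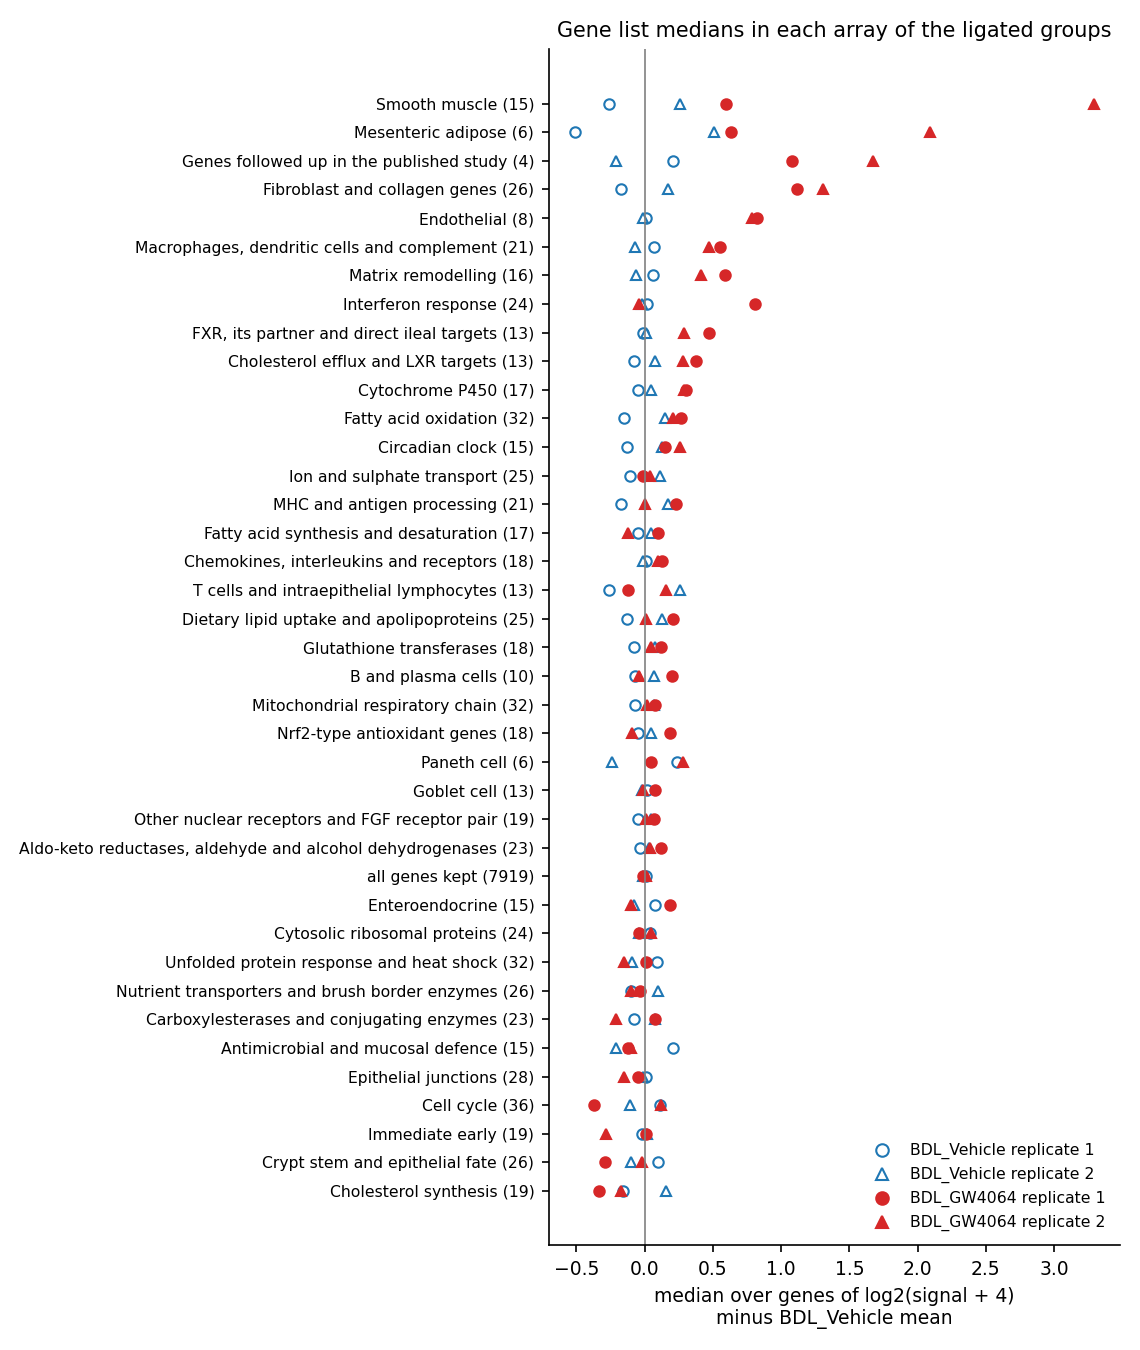
Median over the genes of each list (number tested in brackets) of log2(signal + 4) minus the BDL_Vehicle mean, 1 point per array of the ligated groups. Fibroblast, endothelial and macrophage lists have both BDL_GW4064 points to the right of both BDL_Vehicle points, smooth muscle reaches 3.29 in BDL_GW4064 replicate 2 alone, and interferon genes reach 0.81 in BDL_GW4064 replicate 1 alone.

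The muscle coat gave a different pattern. Smooth muscle genes were far brighter in BDL_GW4064 replicate 2: the contractile actin Actg2 read 1786.2 there, against 71.0 in BDL_GW4064 replicate 1, 66.3 and 98.0 in BDL_Vehicle and 119.5 and 114.5 in Sham_Vehicle. Cnn1, calponin, read 918.1 against 13.2 to 34.6 in the other 5 arrays, and Myh11, smooth muscle myosin, 1148.5 against 39.9 to 92.5. In these genes 1 array stands alone, and the other treated array lies within or close to the rest.

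Of 15 tested smooth muscle genes all had higher values, 10 without overlap (19.1% of all genes) and 0 passing, with a median of 1.95. Relative to the vehicle mean the median was 3.29 in BDL_GW4064 replicate 2 and 0.60 in replicate 1. Their summed signal was 3312 and 3911 in BDL_Vehicle, 4095 and 22595 in BDL_GW4064, and 3861 and 4107 in Sham_Vehicle. Another 5 genes of the list were under the filter. Of the 15, 1 was among the 35 genes with a higher 2-fold gap, Mustn1, where 0.442% of all genes had such a gap.

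In all, 70 genes were at least 2-fold higher in BDL_GW4064 replicate 2 than in each of the 3 other ligated arrays. They included 14 of the 15 smooth muscle genes, 4 of the 26 fibroblast and collagen genes, 4 of the 6 adipose genes and 0 of the 8 endothelial genes. The desmin gene Des, the transgelin gene Tagln, the tropomyosin gene Tpm2, the myosin light chain gene Myl9, the kinase gene Dmpk and the exchanger gene Slc24a3 were among the 10 furthest. The fat cell gene Adipoq read 216.1 in this array and 12.5 to 34.4 in the other ligated arrays, and 54.9 in Sham_Vehicle replicate 2. The adipose list had a median of 1.39, which was 0.60 with array set fitted and 0.63 in BDL_GW4064 replicate 1.

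Without BDL_GW4064 replicate 2, 18 probe sets passed, and Fn1 (difference 1.91, limma adjusted p = 0.0486), Cyp3a11 (1.45, 0.0471) and Fabp6 (1.23, 0.0486) were among them, with the remaining treated array assumed to vary like the other groups. The fibroblast median was then 1.12 and the endothelial median 0.82. Without BDL_GW4064 replicate 1, 48 passed, and Actg2, Acta2, Cald1, Tpm2 and Tagln were among those that had not passed with all arrays.

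**Figure D4:**
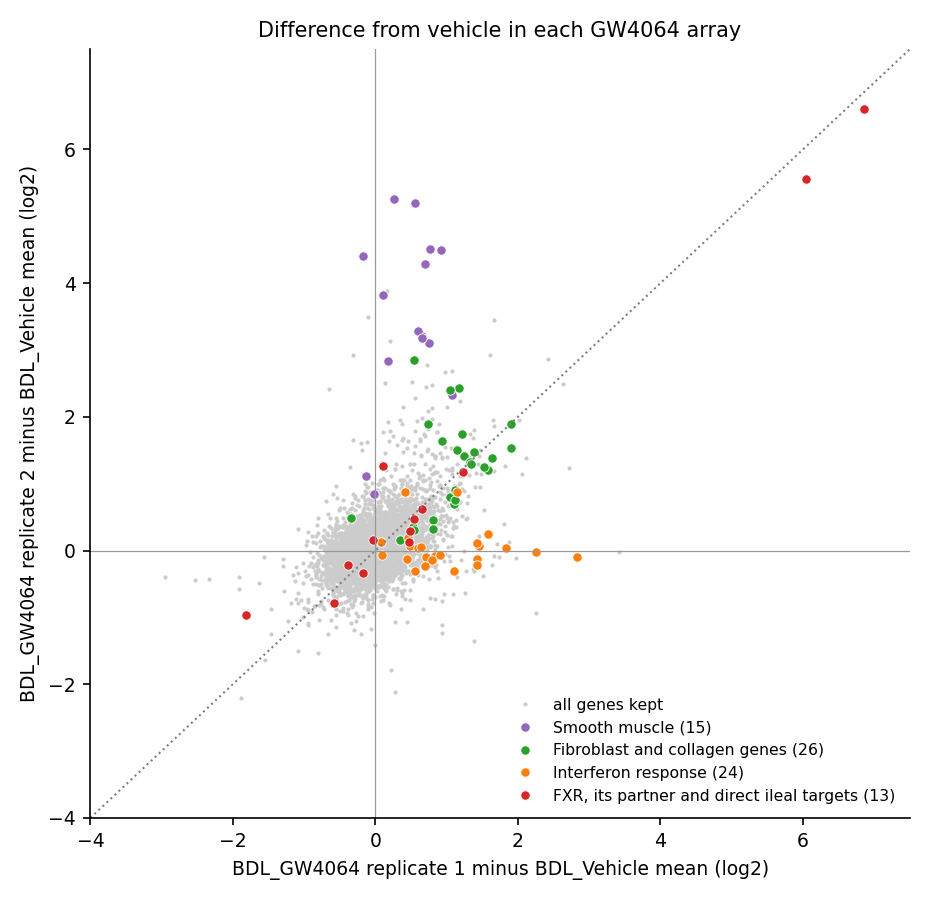
Difference from the BDL_Vehicle mean in BDL_GW4064 replicate 1 (horizontal) and replicate 2 (vertical) on the log2 scale for 7919 genes, with 4 lists in colour and equality dotted. Fibroblast genes scatter about the dotted line with medians of 1.12 and 1.31, smooth muscle genes rise along the vertical axis, and interferon genes spread along the horizontal axis.

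BDL_GW4064 replicate 1 stood alone in another way. Interferon-induced genes were high in it: Oas2, an antiviral enzyme, read 252.1 there and 29.8 in replicate 2, with 29.9 and 34.0 in BDL_Vehicle. Usp18 read 405.1 and 81.0, Irf7 1334.3 and 506.8, and Ifit3 259.7 and 72.1 in the treated arrays in that order. The second treated array was within the range of the vehicle and sham arrays for Usp18 and just outside it for Oas2. All 24 tested interferon genes had higher values in replicate 1 and 11 in replicate 2, with medians of 0.81 and -0.04. The overall median of 0.39 therefore rested on 1 array, 5 of 24 were without overlap (19.1% of all genes) and 0 passed. Ifi27l2a, an interferon-induced gene with a 2-fold gap, read 74.7 and 82.7 in BDL_Vehicle and 541.7 and 191.5 in BDL_GW4064, with 87.6 and 89.0 in Sham_Vehicle (difference 1.98, limma adjusted p = 0.268). Gbp3, a guanylate-binding protein, was also above vehicle in both treated arrays, with 55.4 and 45.1 against 115.2 and 95.6.

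A total of 26 genes were at least 2-fold higher in BDL_GW4064 replicate 1 than in the 3 other ligated arrays, of which 8 were on the interferon list. The immunoglobulin gene Ighm was the furthest, at 3630.0 against 210.4 to 532.1. Another 8 genes were at least 2-fold lower there. Tmem87a read 2.9 against 97.0 to 236.6 in the other 5 arrays, the MHC class I genes H2-Bl 191.5 against 1141.7 to 1799.4 and H2-T3 85.7 against 329.1 to 517.2. Without BDL_GW4064 replicate 2 these 3 genes passed as lower, with H2-T3 at a limma adjusted p of 0.00116 on its other probe set, while in the other treated array all 3 were below both vehicle arrays by a smaller margin.

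The vehicle arrays also differed from each other. In BDL_Vehicle replicate 1, 16 genes were at least 2-fold below the 3 other ligated arrays and 6 above. They included the efflux pump Abcb1a, at 673.7 against 1887.7 to 2222.0, the clock gene Nr1d1 at 52.1 against 151.7 to 217.2, and the fatty acid binding protein Fabp1 at 967.1 against 2447.5 to 3514.3. In BDL_Vehicle replicate 2, 4 genes were below and 0 above. Clock genes show what this means for the comparison: the median of 15 such genes was 0.22 in the fit, 0.49 against BDL_Vehicle replicate 1 and -0.08 against BDL_Vehicle replicate 2. Over all genes, 927 had every array of the set with BDL_GW4064 above every array of the other set, and 1103 the reverse.

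**Figure D5:**
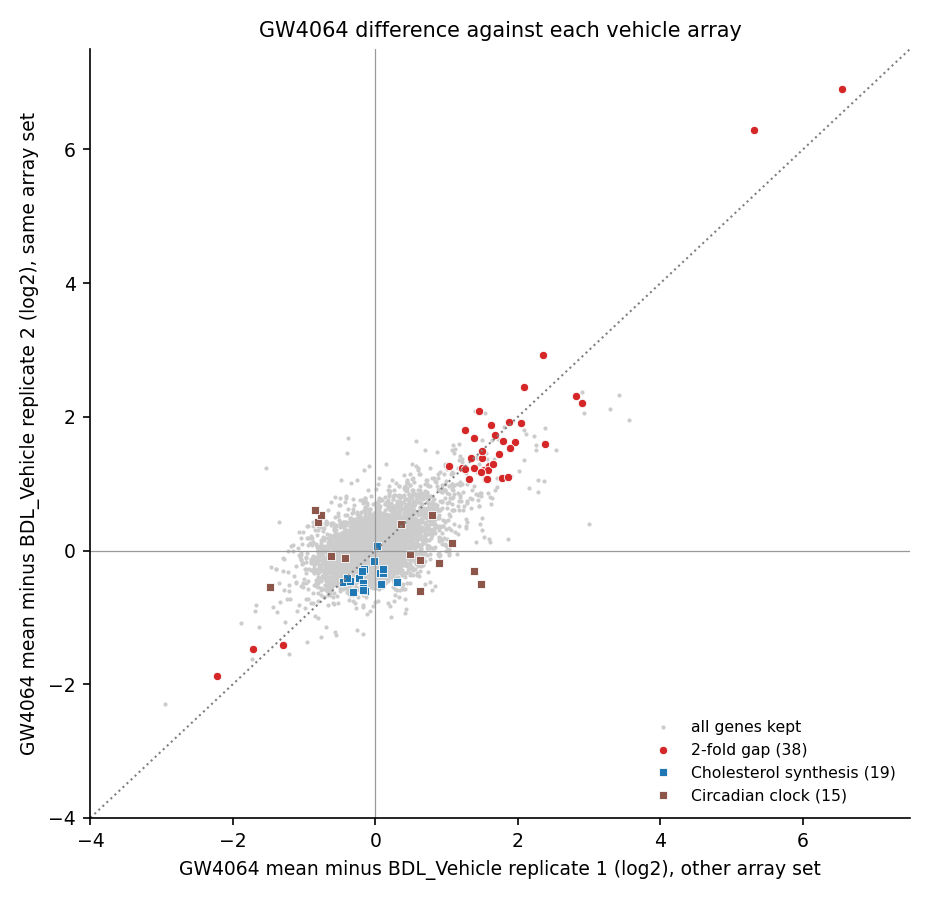
Mean of the BDL_GW4064 arrays minus BDL_Vehicle replicate 1 (horizontal, other array set) and minus BDL_Vehicle replicate 2 (vertical, same array set) on the log2 scale for 7919 genes, with equality dotted. The 38 genes with a 2-fold gap differ in the same direction from both vehicle arrays, as the rule requires. Their distance from the dotted line varies, with Nr0b2 at 5.31 and 6.29 and Col1a2 at 1.77 and 1.08. Cholesterol synthesis genes have medians of -0.16 and -0.41, and clock genes scatter across the dotted line with medians of 0.49 and -0.08.

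Epithelial lists had small medians. Of 28 tested junction genes 22 had lower values, 11 without overlap against 16.7% of all genes, and the median was -0.10. Cldn23, a claudin of tight junctions, read 445.0 and 389.6 in BDL_Vehicle, 204.7 and 206.2 in BDL_GW4064 and 436.9 and 416.8 in Sham_Vehicle, with a difference of -1.01 ± 0.14 (SE, limma adjusted p = 0.0998). The occludin gene Ocln and the cadherin gene Cdh1 differed by -0.30 and -0.29. Of 26 nutrient transporter and brush border genes 0 were higher and 7 lower without overlap (19.1% and 16.7% of all genes), with a median of -0.05, and the peptidase Mme (-0.69) and the peptide carrier Slc15a1 (-0.57) had the smallest p.

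Among crypt and cell fate genes, Id1, an inhibitor of differentiation, read 760.8 and 793.9 in BDL_Vehicle, 491.3 and 526.2 in BDL_GW4064 and 519.9 and 475.0 in Sham_Vehicle (difference -0.61, limma adjusted p = 0.268). Klf4 and Cdx2, transcription factors of intestinal differentiation, differed by -0.43 and -0.48. Of these 26 genes 18 had lower values, with a median of -0.14 that was 0.02 with array set fitted. Cell cycle genes (28 of 36 lower, median -0.12) had a median of -0.37 in BDL_GW4064 replicate 1 and 0.12 in replicate 2, so the arrays of the group disagreed. The immediate early gene Fos read 632.2 and 1042.7 in BDL_Vehicle and 436.0 and 428.0 in BDL_GW4064, close to the Sham_Vehicle signals of 453.4 and 470.9.

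Antioxidant genes known to be induced by the factor Nrf2 had a median of 0.04. Gpx3, a secreted glutathione peroxidase, read 159.9 and 186.8 in BDL_Vehicle and 369.9 and 386.2 in BDL_GW4064 (difference 1.11, limma adjusted p = 0.0998), while Nqo1 differed by -0.42. The respiratory chain (median 0.04, 32 genes) and cytosolic ribosomal proteins (median -0.03, 24 genes) gave medians near that of all genes. One probe set of Rps9 read 651.8 and 296.2 against 45.9 and 60.8 (limma adjusted p = 0.0502), but the gene's other 2 probe sets differed by -0.07 and 0.05.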

How the data were processed

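The deposited values of 6 Affymetrix Mouse 430A 2.0 arrays were intensity values, which the submitters' processing notes name as MAS5 signals. The authors had scaled every array to the same trimmed mean, as the deposited values show, and MAS5 settings are not given in the sources used here. For arrays there is no count depth, and 2 arrays per group limit the precision.

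From these, log2(signal + 4) was computed, and probe sets in the lowest 40% by mean over all arrays were left out. Limma 3.58.1 in R 4.3.3 fitted 1 mean per group to all 6 arrays with a variance prior that followed signal (3 residual and 4.71 prior degrees of freedom), and p-values were adjusted by Benjamini-Hochberg over 13575 probe sets. The fit was tested on simulated data. Each gene was represented by its brightest probe set. The platform annotation gave 1 gene for 20380 probe sets, several for 691 and none for 1555, and RefSeq (GRCm38.p6) held 20351 of the single genes.

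Replicate numbers in the labels were not used as pairs. Deviations of same-numbered BDL_Vehicle and BDL_GW4064 arrays from their group means correlated at -0.12 across probe sets. With 2 arrays a group, and the BDL_Vehicle arrays in different array sets, this value cannot show whether the arrays were paired. Array sets were split at an 18S 5′ signal of 31.1. Genes are named where they passed, where they had a 2-fold gap (the widest 20 in each direction), where they were among the 5 members of a described list with the smallest p, where they were among the 10 furthest in a pattern of 1 array, or as bile acid genes (Fgf15, Nr0b2, Nr1h4; Slc51a, Slc51b, Slc10a2, Fabp6) and genes of the published follow-up (Il18, Car12, Ang, Nos2). Others were chosen after their values were seen. The comparison and the gene lists were chosen with earlier results of these data known. Alternatives were other normalisations, pseudocounts, filters, priors and array choices.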

Additional observations from a re-analysis of the deposited data

How the results depend on the processing

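The number of probe sets that passed was 7. It was 4 with no filter on low signal, 2 without the signal trend, 12 with a robust prior, 2 with array set fitted, and 2 to 48 when 1 array was left out. All 7 passed with the robust prior, and those that passed with no filter, without the trend or with array set fitted were among the 7. With replicate number as a replicate block 4 passed, all among the 7. With the pairing crossed, an alternative chosen after seeing the data, 7 passed, of which 5 were among the 7. Of the calls 85.7% were higher, and 77.8% with quantile normalisation and 80% with median centring.

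Probe sets with a 2-fold gap numbered 46 higher and 7 lower. They were 114 and 25 with no filter, 26 higher with the filter at 60%, and 191 and 33 at a 1.5-fold gap. Leaving out 1 array gave 82 to 209 higher and 15 to 88 lower, by construction since fewer arrays have to agree. Of 1858 values of 118 of the named genes under these alternatives, 8 changed sign, in 7 genes. When 1 array was left out, Actg2 ran from -0.18 to 4.40 and Dmpk from -0.32 to 2.92, lowest without BDL_GW4064 replicate 2. Ighm ran from -0.02 to 3.42, Oas2 from -0.09 to 2.83 and Usp18 from -0.02 to 2.25, lowest without BDL_GW4064 replicate 1. The brightest probe set of Rps9 ran from -0.21 to 0.08. Nr1d1 was at -0.50 with array set fitted, which rests on the same vehicle array as leaving out BDL_Vehicle replicate 1, and ran from -0.50 to 1.48.

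Of 41 lists, 25 changed the sign of their median under at least 1 alternative. In 3 of the 25 the median had been at least 0.2 from 0: matrix remodelling, interferon response and circadian clock, whose values are given with those lists. Of 655 list medians under alternatives, 49 moved by more than the spread between replicates, and the cause was not tested. Signals near or under 37.1 limit the folds of dim genes.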
